A study of Mus musculus with 6 samples.

Results

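The 32 genes described here code for glucose transporters, enzymes and regulators of glycolysis and gluconeogenesis, and the enzyme that commits fructose to breakdown, in mouse liver. They were taken by name from a table of 45706 genes, and all 32 passed the filter on low counts that left 14069 genes for testing. By their textbook distribution, 11 are liver-type forms (Slc2a2, Gckr, Pfkl, Pfkfb1, Pklr, Pck1, G6pc, Slc37a4, Fbp1, Pcx and Khk). Another 11 are forms better known from other tissues (Slc2a1, Hk1, Hk2, Hk3, Pfkm, Pfkp, Pfkfb2, Pfkfb3, Pfkfb4, Aldoa and Pkm). The remaining 10 are shared by most tissues or belong to neither class (Gpi1, Tpi1, Gapdh, Pgk1, Pgam1, Eno1, Ldha, Pdk1, Pdk2 and Pck2).

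Poly(A) RNA was sequenced from livers labelled wild type (WT 1 to WT 3) and from livers labelled ENTPD-8 knockout (KO 1 to KO 3), 3 libraries per group, from mice bred and kept under specific pathogen-free conditions. Entpd8 encodes NTPDase8, an enzyme on the cell surface that breaks down extracellular nucleotides, and the series title places it in liver ischemia and reperfusion. The labels give no strain, sex, age, feeding state or time of day, do not say whether these livers had been made ischemic, and do not describe how the allele was made. Nothing in them ties each library to its own mouse, so p-values here reflect the spread among libraries, which may be technical.

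The liver both burns and makes glucose, and the same pathway runs in opposite directions after a meal and during fasting. Glycolysis turns glucose into pyruvate, with control at glucose phosphorylation, at phosphofructokinase and at pyruvate kinase, and gluconeogenesis bypasses those steps with Pcx, Pck1, Fbp1 and G6pc. Hepatocytes express their own forms of several of these proteins, such as the transporter Slc2a2 and the pyruvate kinase Pklr, while many other cells, and dividing or stressed tissue, use forms such as Slc2a1, Hk1, Hk2 and Pkm.

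In knockout livers 9 of the 32 genes rose and 2 fell. The risers were the transporters Slc2a2 and Slc2a1, the hexokinases Hk1 and Hk2, the hexokinase regulator Gckr, the pyruvate kinase Pklr, the kinase Pdk1 that restrains pyruvate dehydrogenase, the glucose-releasing enzyme G6pc and the fructose kinase Khk. The fallers were the gluconeogenic enzyme Pck1 and the bifunctional regulator Pfkfb2. The other 21, among them most enzymes of the middle of glycolysis, did not pass the test. A gene is called here when its adjusted p was under 0.05 in edgeR's quasi-likelihood test with Benjamini-Hochberg adjustment over all 14069 genes. Of all genes tested, 20.4% were called, 9.80% higher and 10.6% lower in knockout livers, against 28.1% and 6.25% of the 32. The median log2 fold change was 0.22 over the 32, with 22 of them above 0, and -0.024 over all genes tested. The count of higher members was 4 without KO 1, 6 without KO 2 and 6 without KO 3, and in those fits fewer genes were called in the whole table too, 385 higher without KO 1. The count of lower members was 1 without any of those libraries, without WT 1 or without WT 3, and 3 without WT 2.

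Promoter sequence is shown for 3 of the called genes, Pklr, Khk and Pck1, because each of these windows held a short motif of a well-known glucose- or hormone-responsive kind. The 150 bases run from -200 to -51 relative to the transcription start, 5′ to 3′ on the plus strand, from RefSeq on GRCm38.p6, with the motif in capitals.
Pklr: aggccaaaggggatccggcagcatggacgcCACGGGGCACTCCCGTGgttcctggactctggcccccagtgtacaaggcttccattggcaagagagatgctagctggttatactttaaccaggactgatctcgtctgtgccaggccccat
Khk: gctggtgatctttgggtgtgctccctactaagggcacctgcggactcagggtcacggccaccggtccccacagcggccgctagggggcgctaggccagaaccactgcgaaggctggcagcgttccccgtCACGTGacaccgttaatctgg
Pck1: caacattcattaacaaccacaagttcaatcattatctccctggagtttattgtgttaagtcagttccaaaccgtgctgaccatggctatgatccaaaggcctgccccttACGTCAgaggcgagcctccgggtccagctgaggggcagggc
The Pklr window is chr3:89136423-89136572 and belongs to the downstream of the gene's alternative starts, the one known for the liver form. Its capitals mark a carbohydrate response element at -170 to -154, a pair of E-box-like elements to which the glucose-sensing factor encoded by Mlxipl is known to bind. The Khk window is chr5:30921359-30921508, with an E-box at -71 to -66, and the Pck1 window is chr2:173152873-173153022, with the core of a cyclic AMP response element at -91 to -86.

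Windows of 250 bases before each RefSeq start were searched on both strands, 32851 windows in all and 54 for the 32 genes, all of which were matched. The E-box, CACGTG, lay in 6.02% of all windows and in 7 of the 54, near Khk, Ldha, Pcx, Pdk2, Pfkfb2, Pfkfb3 and Pfkm. The cyclic AMP response element core, ACGTCA, lay in 6.47% of all windows and in 6 of the 54, near Hk2, Ldha, Pck1, Pfkfb3 and Slc37a4. Windows of alternative starts can overlap, so a site can be counted more than once, as the Slc37a4 site was. The carbohydrate response element was found in 32 windows of the whole set, 0.0974%, and among the 32 genes near Pklr. The hypoxia response core, ACGTG, which every E-box also contains, lay in 16.6% of all windows and in 18 of the 54, near 14 of the 32 genes. The same Aldoa site was counted more than once here. The letters TGTTTAC, a strict form of the forkhead site, lay in 3.17% of all windows and in no window of the 32. Other forms of that site were not searched for. Genes with an E-box included Khk, which rose, Pfkfb2, which fell, and 5 that were not called, so genes holding these letters moved in both directions.

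**Figure D1:**
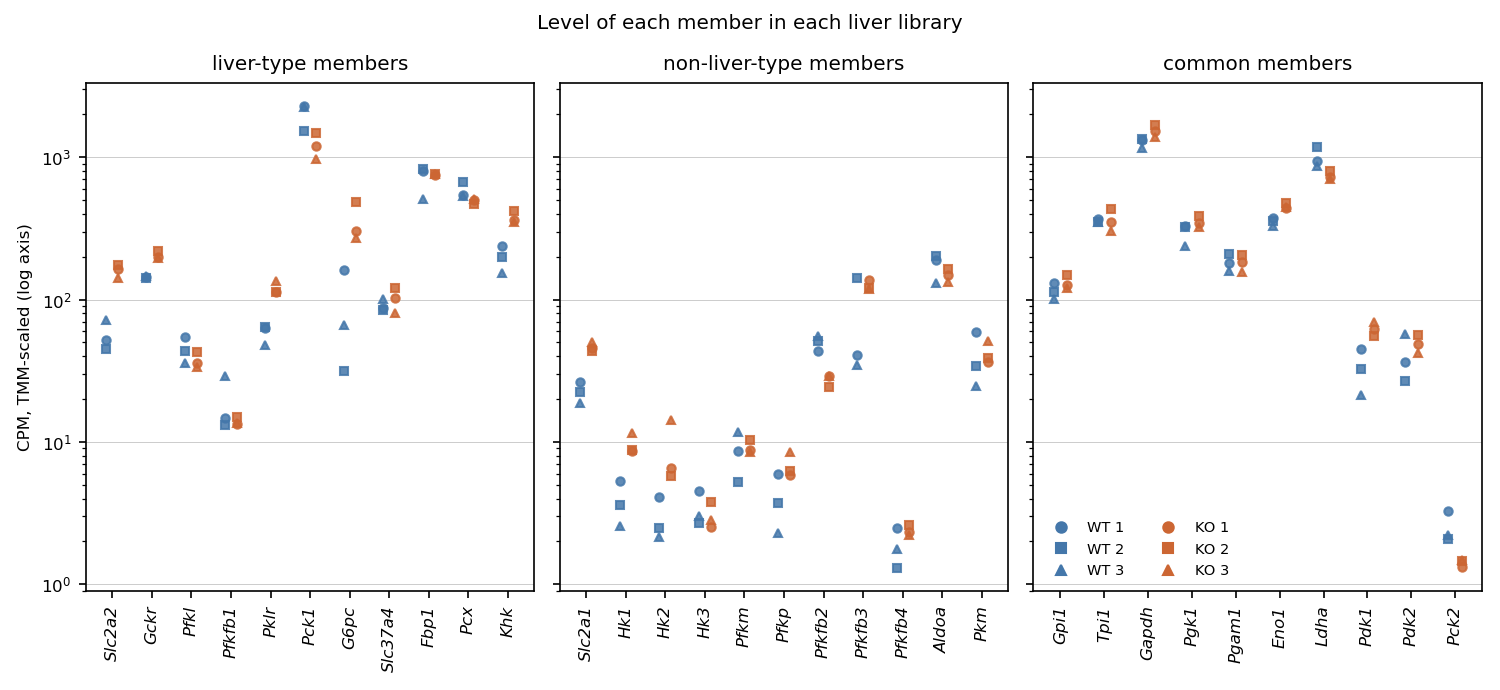
CPM (scaled counts, on a log axis) of each of the 32 genes in each library, in 3 panels by class, with WT libraries in blue and KO libraries in orange and a marker shape for each library number. The orange points of Slc2a2, Slc2a1, Pklr and Khk lie above all blue points, those of Pfkfb2 and Pck1 below, and 5 of the 10 common genes overlap. Shapes only name libraries and are not meant as pairs across groups.

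Both hexose transporters rose. Levels are given as CPM, counts scaled to a common library total after TMM adjustment. Slc2a2, the high-capacity transporter through which hepatocytes take up and release glucose, was at 51.9, 44.6 and 71.8 CPM in WT 1, WT 2 and WT 3 and at 165, 174 and 141 CPM in KO 1, KO 2 and KO 3. Every knockout library was therefore above every wild-type library, and the means differed 2.85-fold (edgeR log2 fold change 1.51 ± 0.19 (SE), adjusted p = 0.00382). Slc2a1, the high-affinity transporter of the brain and many dividing cells, was at 26.5, 22.3 and 18.7 CPM in wild-type and 45.5, 43.4 and 50.0 CPM in knockout livers. The groups were again apart, with a log2 fold change of 1.04 ± 0.15 (SE; adjusted p = 0.00510, edgeR). Slc2a2 lies on chromosome 3 from 28697903 to 28731359, and Slc2a1 on chromosome 4 from 119108711 to 119137983, both on the plus strand of GRCm38. Per kilobase of exon, the mean level of Slc2a2 went from 9.75 to 27.8 CPM and that of Slc2a1 from 6.42 to 13.2 CPM, so the liver transporter was the more abundant of the pair in either genotype.

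At the entry of glucose into the pathway, Gckr, Hk1 and Hk2 rose and Hk3 was not called. Gckr encodes a nuclear protein that holds back the hepatocyte's own glucose-phosphorylating enzyme. Its level was 143, 141 and 146 CPM in wild-type and 201, 219 and 196 CPM in knockout livers, a narrow spread in both groups with no overlap. The change was the smallest of the called members in size, at a log2 fold change of 0.51 ± 0.11 (SE; adjusted p = 0.0191, edgeR), and the adjusted p rose to at most 0.0959 when a library was left out, passing 0.05 without WT 1, KO 1 or KO 2.

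Hk1 and Hk2 are the low-Km hexokinases of brain, muscle and most other tissues, and hepatocytes normally express little of either. Hk1 was at 5.29, 3.61 and 2.55 CPM in wild-type and 8.58, 8.82 and 11.6 CPM in knockout livers, with no overlap (edgeR log2 fold change 1.34 ± 0.27 (SE), adjusted p = 0.0151). Hk2 was at 4.11, 2.49 and 2.17 CPM in wild-type and 6.59, 5.81 and 14.3 CPM in knockout livers. KO 3 had the highest level of both genes, and for Hk2 it stood well above KO 1 and KO 2. The log2 fold change of Hk2 was 1.61 ± 0.40 (SE; adjusted p = 0.0300, edgeR) with all libraries and 1.09 (adjusted p = 0.0570) without KO 3, and the adjusted p was 0.0729, 0.0766 and 0.0635 without WT 2, WT 3 and KO 1. Hk3, the hexokinase of white blood cells, ran from 2.69 to 4.55 CPM in wild-type and from 2.52 to 3.81 CPM in knockout livers (adjusted p = 0.720, edgeR). Per kilobase of exon, Hk1 went from 0.448 to 1.13 CPM and Hk2 from 0.489 to 1.49 CPM, so both stayed near the bottom of the 32.

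**Figure D2:**
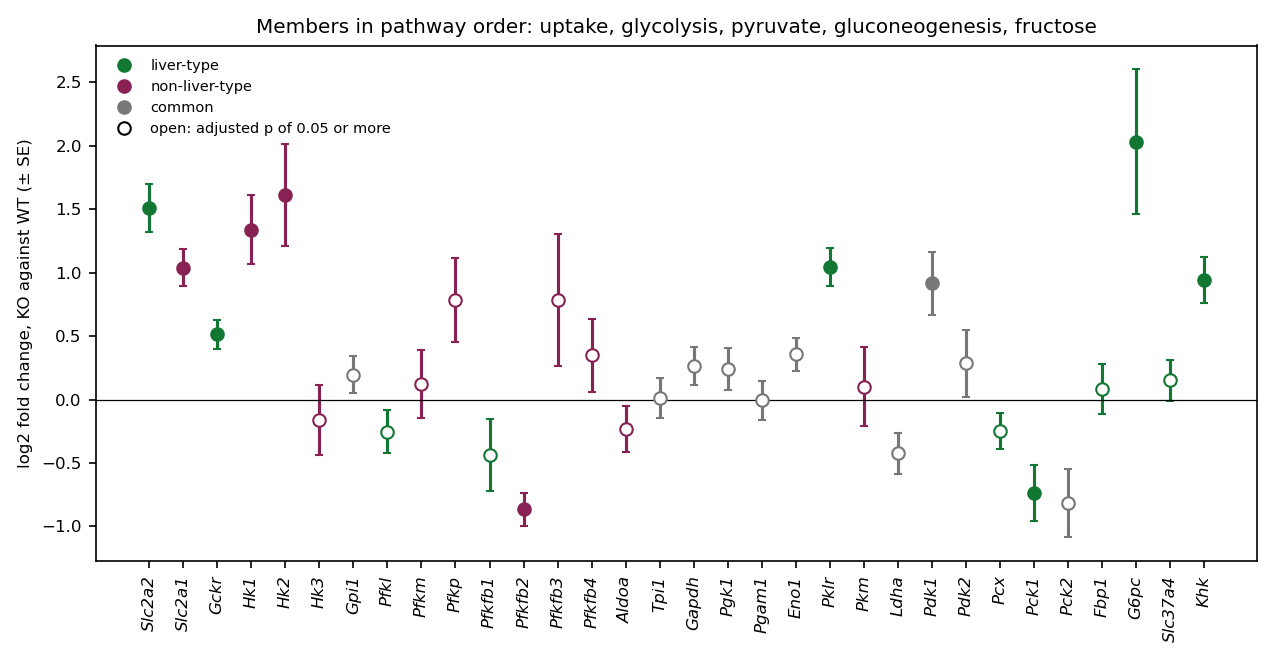
Log2 fold change (KO against WT, with its SE) of each of the 32 genes, left to right from glucose uptake to pyruvate, then gluconeogenesis and fructose; colour gives the class and filled points have an adjusted p under 0.05. The uptake and phosphorylation genes at the left are mostly filled and above 0, the stretch from Hk3 to Eno1 is open but for Pfkfb2, and G6pc (2.03) and Pck1 (-0.74) stand on opposite sides of 0.

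The phosphofructokinase step showed no call by edgeR among the 3 subunit genes, of which Pfkp had an unadjusted p under 0.05 (0.0454). Pfkl, the liver subunit, went from 44.6 ± 9.3 to 37.4 ± 5.0 CPM (SD, n = 3 per group; adjusted p = 0.330, edgeR). The muscle subunit gene Pfkm was at 8.49 ± 3.23 and 9.23 ± 0.996 CPM (adjusted p = 0.785, edgeR). The platelet subunit gene Pfkp was at 5.95, 3.74 and 2.30 CPM in wild-type and 5.88, 6.28 and 8.52 CPM in knockout livers, so WT 1 overlapped the knockout range (edgeR log2 fold change 0.79 ± 0.33 (SE), adjusted p = 0.130). Without WT 1 its log2 fold change was 1.18 and the adjusted p 0.0468. Leaving out any other library gave an adjusted p of 0.195 to 0.301 by edgeR. Gpi1, which supplies this step by turning glucose 6-phosphate into its fructose form, had an adjusted p of 0.366 by edgeR.

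The Pfkfb genes encode bifunctional enzymes that make and remove the bisphosphate signal that switches phosphofructokinase on. Of these 4, Pfkfb2, known as the heart form, fell. It was at 43.7, 51.3 and 55.5 CPM in wild-type and 29.2, 24.5 and 29.0 CPM in knockout livers, with a clear gap between the groups (edgeR log2 fold change -0.86 ± 0.13 (SE), adjusted p = 0.00645). It lies on the minus strand of chromosome 1 from 130689182 to 130729253. Pfkfb1, the liver form, was at 14.7, 13.1 and 28.9 CPM in wild-type and 13.3, 15.1 and 13.6 CPM in knockout livers. Only WT 3 stood apart there, and without it the log2 fold change went from -0.44 to 0.0019. Pfkfb3, a form induced by growth signals, inflammation and low oxygen, was at 40.9, 142 and 34.8 CPM in wild-type and 137, 120 and 118 CPM in knockout livers. WT 2 thus had the highest level of any library, and the gene was not called with it (edgeR log2 fold change 0.78 ± 0.52 (SE), adjusted p = 0.323). Without WT 2 the log2 fold change was 1.72 and the adjusted p 0.00142. Leaving out any other library gave an adjusted p of 0.443 to 0.568 by edgeR. Pfkfb4, the testis form, stayed between 1.31 and 2.59 CPM in all 6 libraries (adjusted p = 0.423, edgeR).

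Of the 6 enzymes from aldolase to enolase, none was called. Eno1 alone had an unadjusted p under 0.05 by edgeR (0.0227); its adjusted p was 0.0200 in DESeq2 and 0.0727 in limma voom. Aldoa, the muscle-type aldolase, went from 175 ± 38 to 149 ± 15 CPM, and Tpi1, which interconverts the triose phosphates, was at 357 ± 9 and 360 ± 65 CPM (SD, n = 3 per group). Gapdh was at 1311, 1337 and 1168 CPM in wild-type and 1518, 1675 and 1392 CPM in knockout livers. The groups lay close together without overlap and the gene was not called (edgeR log2 fold change 0.26 ± 0.15 (SE), adjusted p = 0.235). Eno1, the enolase of most tissues, was at 376, 358 and 329 CPM in wild-type and 439, 476 and 445 CPM in knockout livers, also without overlap (edgeR log2 fold change 0.36 ± 0.13 (SE), adjusted p = 0.0836). For Pgk1, the first enzyme of the pathway to yield ATP, the log2 fold change was 0.24 (adjusted p = 0.335), and for Pgam1 it was -0.0067 (adjusted p = 0.981, edgeR). Gapdh, Pgk1, Pgam1, Eno1, Gpi1, Pkm, Ldha and Pfkfb2 had estimated counts that were not whole numbers in at least 1 library, so some of their reads were shared out among similar sequences and their values are less certain.

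At the end of glycolysis the liver pyruvate kinase rose and the other form was not called. Pklr was at 63.0, 63.7 and 47.9 CPM in wild-type and 113, 113 and 134 CPM in knockout livers. All knockout libraries lay above the wild-type range, with a log2 fold change of 1.05 ± 0.15 (SE; adjusted p = 0.00531, edgeR). Pkm, the form of muscle, white blood cells and dividing cells, was at 59.2, 34.2 and 24.5 CPM in wild-type and 36.2, 39.0 and 51.4 CPM in knockout livers (edgeR log2 fold change 0.10 ± 0.31 (SE), adjusted p = 0.847). WT 1 and WT 3 thus held the highest and the lowest Pkm level, with the knockout libraries between them. Pklr lies on chromosome 3 from 89136142 to 89146784, on the plus strand, and its promoter window is the one that holds the carbohydrate response element.

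Beyond pyruvate kinase, Ldha, which turns pyruvate into lactate, was at 938, 1185 and 867 CPM in wild-type and 731, 797 and 702 CPM in knockout livers. The ranges did not overlap, but the difference was called only with library totals as the scaling (edgeR log2 fold change -0.42 ± 0.16 (SE), adjusted p = 0.101). Pdk1 and Pdk2 phosphorylate pyruvate dehydrogenase and so slow the entry of pyruvate into the citric acid cycle. Pdk1, a form known for its induction by low oxygen, was at 44.8, 32.4 and 21.4 CPM in wild-type and 61.8, 55.1 and 69.2 CPM in knockout livers. Its groups did not overlap and it was called (edgeR log2 fold change 0.92 ± 0.25 (SE), adjusted p = 0.0380), but the adjusted p passed 0.05 without WT 2, KO 1, KO 2 or KO 3 and reached 0.114. Pdk2, the common liver form, was at 40.2 ± 15.6 and 49.0 ± 7.2 CPM (SD, n = 3 per group; adjusted p = 0.477, edgeR).

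In gluconeogenesis, Pck1 fell and G6pc rose, and Pcx, Fbp1, Slc37a4 and Pck2 were not called. Pck1, the cytosolic enzyme that turns oxaloacetate into phosphoenolpyruvate and responds to glucagon and insulin, was the most abundant of the 32 per kilobase in wild-type livers. It was at 2301, 1537 and 2233 CPM in wild-type and 1198, 1471 and 975 CPM in knockout livers. WT 2 lay just above KO 2, and the log2 fold change was -0.74 ± 0.22 (SE; adjusted p = 0.0485, edgeR). This call was the closest to the threshold: leaving out any library but WT 2 ended it, with an adjusted p of up to 0.164, and RLE scaling gave 0.0528. Pck1 lies on chromosome 2 from 173153048 to 173159273, on the plus strand.

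G6pc is the catalytic subunit of the phosphatase that frees glucose for release into the blood, the last step of gluconeogenesis and of glycogen breakdown. It was at 160, 31.7 and 66.4 CPM in wild-type and 303, 485 and 270 CPM in knockout livers, the widest wild-type range of the 32, with a highest value 5.06 times the lowest. All knockout libraries lay above WT 1, and the log2 fold change was the largest of the 32, at 2.03 ± 0.57 (SE; adjusted p = 0.0479, edgeR). The call ended when WT 3 or any knockout library was left out (highest adjusted p 0.141), with upper-quartile scaling (0.0506), library totals (0.0590), the length trend removed (0.0508) or no filter (0.178). The log2 fold change was 2.84 without WT 1 and 1.64 without WT 2. G6pc lies on chromosome 11 from 101367561 to 101377903, on the plus strand.

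None of the other gluconeogenic genes was called by edgeR with all libraries, and of them Pck2 had an unadjusted p under 0.05 (0.0153). Slc37a4, the transporter that feeds G6pc with its substrate, ran from 84.6 to 101.2 CPM in wild-type and from 80.6 to 120.1 CPM in knockout livers, with overlap (adjusted p = 0.544, edgeR). Fbp1, which removes a phosphate from fructose bisphosphate, was at 799, 832 and 510 CPM in wild-type and 750, 756 and 762 CPM in knockout livers. Its knockout libraries were nearly level, and WT 3 was low (adjusted p = 0.798, edgeR). Pcx, which makes oxaloacetate from pyruvate, was at 543, 673 and 537 CPM in wild-type and 499, 471 and 509 CPM in knockout livers, without overlap (edgeR log2 fold change -0.25 ± 0.14 (SE), adjusted p = 0.259). Pck2, the mitochondrial counterpart of Pck1 and scarce here, was at 3.28, 2.08 and 2.22 CPM in wild-type and 1.32, 1.47 and 1.49 CPM in knockout livers. It was lower in all knockout libraries but not called by edgeR with all libraries (log2 fold change -0.82 ± 0.27 (SE), adjusted p = 0.0648), while DESeq2 called it, as did edgeR without WT 2 (0.0479). When any other library was left out, the edgeR adjusted p was 0.0863 to 0.212.

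Khk, ketohexokinase, phosphorylates fructose and feeds it into the lower part of the pathway past the control at phosphofructokinase. It was at 236, 199 and 154 CPM in wild-type and 360, 419 and 353 CPM in knockout livers. The groups were well apart (edgeR log2 fold change 0.94 ± 0.18 (SE), adjusted p = 0.0122), and leaving out KO 1 brought the adjusted p to 0.0516. Per kilobase, Khk went from 109 to 210 CPM, from rank 8 of the 32 to rank 5. Khk lies on chromosome 5 from 30921431 to 30931248, on the plus strand.

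By class, 5 of 11 liver-type genes rose (Slc2a2, Gckr, Pklr, G6pc and Khk) and 1 fell (Pck1), with a median log2 fold change of 0.15. Of the 11 non-liver-type genes, 3 rose (Slc2a1, Hk1 and Hk2) and 1 fell (Pfkfb2), with a median of 0.35. Of the 10 common genes, 1 rose (Pdk1) and none fell, with a median of 0.22; at an unadjusted p under 0.05 by edgeR 2 were lower, and DESeq2 called 1 and limma voom 0. Genes of both classes were thus among the risers, and the shares that rose were not tested against each other. Of all genes tested, 9.80% were called higher and 10.6% lower in knockout livers. The shares that rose were 45.5% of liver-type and 27.3% of non-liver-type genes, and 9.09% of each class fell. Those falls, and the 1 rise among the 10 common genes, were near the background. Counting genes whose knockout libraries all lay on the same side of all wild-type libraries, 11 of the 32 were higher and 5 lower, against 18.7% and 22.0% of all genes tested.

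Ordered by length-corrected level, the 32 genes spanned a wide range. In wild-type livers Pck1 (590 ± 123 CPM per kilobase), Fbp1 (419 ± 104), Gapdh (308 ± 22) and Ldha (301 ± 50; SD, n = 3) stood at the top, and the libraries of Pck1 and Fbp1 overlapped. In knockout livers the order was Fbp1 (444 ± 4), Gapdh (370 ± 34), Pck1 (354 ± 72) and Ldha (225 ± 15), with overlap between Gapdh and Pck1. G6pc went from rank 12 to rank 7, at 35.7 ± 27.6 and 146 ± 48 CPM per kilobase. At the low end, Hk1, Hk2, Hk3, Pfkp, Pfkfb4 and Pck2 lay under 2 CPM per kilobase in both genotypes. Within a step, the liver form was the more abundant for Slc2a2 over Slc2a1, Pklr over Pkm and Pfkl over Pfkm and Pfkp, by group means. At the Pfkfb step, by group means, the liver form Pfkfb1 lay below Pfkfb2 and Pfkfb3 and above Pfkfb4. In wild-type and knockout livers Pfkfb1 was at 4.71 and 3.48 CPM per kilobase and Pfkfb2 at 6.92 and 3.80. Pfkfb3 was at 9.58 and 16.5 and Pfkfb4 at 0.382 and 0.487. With the longest transcript as the length, Pfkfb2 made up 55.6%, 62.3% and 44.8% of its pair with Pfkfb1 in wild-type livers. In knockout livers it made up 48.1%, 40.7% and 47.5%, so the order within this pair depended on the length used. Per exon length, Pfkfb3 made up 39.0% of its pair with Pfkfb1 in WT 3.

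**Figure D3:**
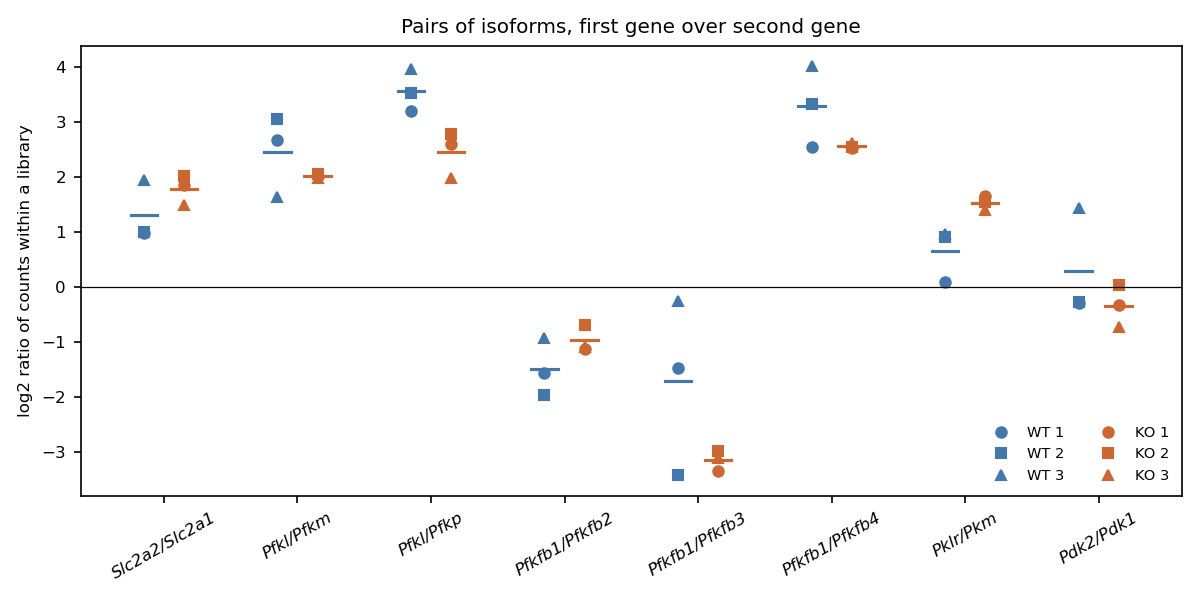
Log2 ratio of the counts of 2 related genes within each library (vertical axis), the first gene over the second, with WT libraries in blue, KO libraries in orange and bars at group means. Pfkl/Pfkp falls and Pklr/Pkm rises without overlap (differences -1.11 and 0.87), the other pairs overlap, and Pck1/Pck2, near 9.6 in both groups, is left off for scale.

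The balance between forms was compared within libraries for 9 pairs, as the log2 ratio of their counts, which needs no scaling between libraries. For Pklr over Pkm the log2 ratio was 0.091, 0.90 and 0.97 in wild-type and 1.65, 1.54 and 1.39 in knockout livers. The ratio moved toward the liver form by 0.87, without overlap (exact two-sided permutation p = 0.1, the smallest that 3 against 3 can give, and 0.45 adjusted over the 9 pairs). Corrected for exon length, Pkm made up 37.8%, 25.8% and 24.9% of the pair in wild-type and 17.1%, 18.2% and 19.8% in knockout livers. With the longest transcript as the length the shares were higher, from 37.9% to 52.8% in wild-type and from 27.6% to 31.3% in knockout livers. The length used rescales the ratio alike in all libraries, so it cannot change whether the groups overlap.

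For Pfkl over Pfkp the log2 ratio went the other way, from 3.19, 3.53 and 3.96 in wild-type to 2.60, 2.78 and 1.97 in knockout livers (difference -1.11, exact permutation p = 0.1, adjusted p = 0.45). The share of Pfkp in that pair, per length, was 4.14 ± 1.03% and 8.55 ± 2.39% (SD, n = 3 per group). With the longest transcript as the length it was 8.97%, 7.24% and 5.48% in wild-type and 12.9%, 11.6% and 18.7% in knockout livers. Slc2a2 over Slc2a1 differed by 0.48 (exact permutation p = 0.3) with overlap, since both transporters rose. The log2 ratio of Pfkfb1 to Pfkfb2 differed by 0.52, that of Pfkfb1 to Pfkfb3 by -1.43 and that of Pfkfb1 to Pfkfb4 by -0.74, none without overlap. Pfkl over Pfkm differed by -0.43, Pdk2 over Pdk1 by -0.63 and Pck1 over Pck2 by 0.056, the last a ratio that stayed near 9.6 in both groups although both genes were lower in knockout livers on average. No pair could pass an adjusted p of 0.05 with 3 libraries per group, and the adjusted p was 0.45 or 1.0 throughout.

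Genes around the pathway were counted from 4 further lists, which were chosen with earlier results of these data known. In the list on the fate of pyruvate, 10 of 21 rose and 0 fell, with a median log2 fold change of 0.56. The list covers transport into mitochondria, pyruvate dehydrogenase with its kinases and phosphatases, and enzymes and transporters of lactate, alanine, aspartate and malate. That is 47.6% higher and 0.00% lower, against 9.80% and 10.6% of all genes tested, whose median was -0.024. For falls, 1 gene had an unadjusted p under 0.05 by edgeR, DESeq2 called 1 and limma voom 0. Mpc1, a subunit of the mitochondrial pyruvate carrier, rose from 91.7 ± 9.0 to 151 ± 4 CPM (adjusted p = 0.00844), and Pdhb, a subunit of pyruvate dehydrogenase, from 86.4 ± 10.4 to 142 ± 10 CPM (SD, n = 3 per group; adjusted p = 0.0108, edgeR). Pdk4, the pyruvate dehydrogenase kinase of fasting and fat oxidation, was at 10.4, 20.04 and 8.97 CPM in wild-type and 55.4, 40.0 and 74.6 CPM in knockout livers (edgeR log2 fold change 2.11 ± 0.35 (SE), adjusted p = 0.0105). The dehydrogenase subunit and the kinase that opposes it therefore rose in the same livers. Ldhb, the heart-type lactate dehydrogenase subunit and scarce in liver, went from 0.910 ± 0.090 to 2.41 ± 0.44 CPM (edgeR log2 fold change 1.40 ± 0.27 (SE), adjusted p = 0.0122). Without KO 1 none of the 21 was called, and those 4 then had adjusted p-values from 0.0503 to 0.0626.

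Among fructose, polyol and pentose phosphate genes, 4 of 11 rose and 2 fell, with a median log2 fold change of 0.26. The shares were 36.4% higher and 18.2% lower, against 9.80% and 10.6% of all genes tested. Tkfc, the triokinase that acts after Khk in fructose breakdown, was at 137, 116 and 145 CPM in wild-type and 233, 241 and 225 CPM in knockout livers (log2 fold change 0.81 ± 0.13 (SE)). Sord, which makes fructose from sorbitol, had a log2 fold change of 0.81 ± 0.16, and Rpia and Tkt, of the non-oxidative pentose phosphate pathway, of 1.13 ± 0.18 and 0.56 ± 0.12. The fallers were Glyctk, glycerate kinase, which handles another product of fructose breakdown (-1.15 ± 0.28), and H6pd, the pentose phosphate enzyme of the endoplasmic reticulum (-0.63 ± 0.16). Khk and 2 of its neighbours in fructose handling, Tkfc and Sord, thus rose while Glyctk fell. Without KO 1 the counts were 2 higher and 0 lower, no gene of this list fell without WT 1, KO 2 or KO 3, and 1 fell without WT 2 or WT 3.

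In the list of regulators of hepatic glucose metabolism, 4 of 24 rose and 2 fell, with a median log2 fold change of 0.23. That is 16.7% higher and 8.33% lower, against 9.80% and 10.6% of all genes tested, so the share that fell was near the background. Srebf1, the lipid and glycolytic gene regulator driven by insulin, was at 48.8, 35.1 and 42.4 CPM in wild-type and 248, 259 and 211 CPM in knockout livers (edgeR log2 fold change 2.51 ± 0.16 (SE), adjusted p = 3.86e-04). Txnip, a glucose-induced protein that restrains glucose uptake, was at 29.2, 26.7 and 27.0 CPM in wild-type and 102, 155 and 76.5 CPM in knockout livers (edgeR log2 fold change 2.01 ± 0.24 (SE), adjusted p = 0.00364). Insr, the insulin receptor, fell (-0.61 ± 0.11), as did Creb1, a factor of the cyclic AMP response (-0.75 ± 0.16). Sik1, a kinase that restrains gluconeogenic genes, and Fgf21, a hepatokine of fasting and sugar intake, were the other risers. By edgeR the adjusted p of Sik1 was 0.0610, 0.0620 and 0.0610 without KO 1, KO 2 and KO 3. That of Fgf21 passed 0.05 without WT 2, WT 3, KO 1 or KO 3. Mlxipl, which encodes the carbohydrate response element binding protein, was at 113, 104 and 139 CPM in wild-type and 137, 184 and 161 CPM in knockout livers, with overlap (edgeR log2 fold change 0.44 ± 0.16 (SE), adjusted p = 0.0909). Without KO 1 the counts were 2 higher and 0 lower.

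Of 18 listed further isoforms and transporters, 12 were tested and none was called by edgeR. At an unadjusted p under 0.05, 2 were higher and 0 lower, and DESeq2 and limma voom each called 1 higher. A share of 9.80% of 12 genes is about 1 gene, so a count of 0 is near the background.

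**Figure D4:**
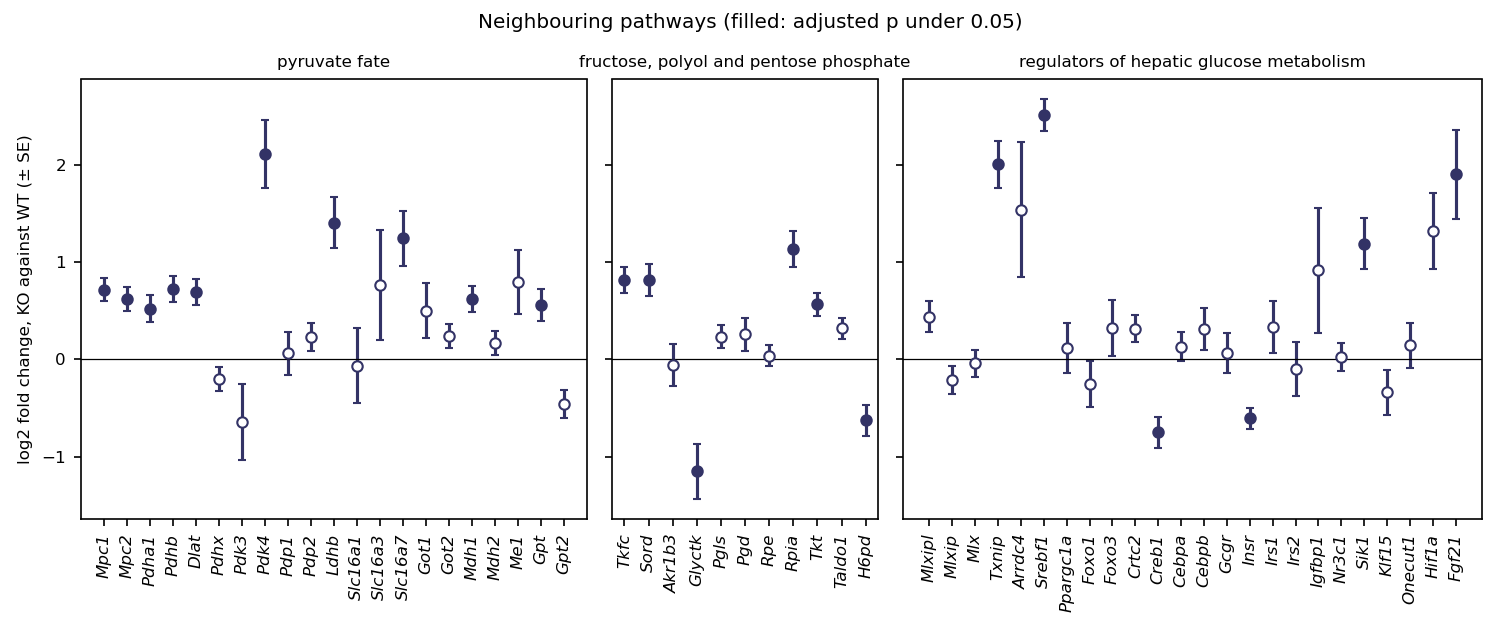
Log2 fold change (KO against WT, with its SE) of each tested gene in 3 of the lists around the pathway; filled points have an adjusted p under 0.05. In the pyruvate panel 10 of 21 points are filled and all of these are above 0, in the fructose panel 4 are filled above 0 and 2 below, and in the regulator panel Srebf1 (2.51) and Txnip (2.01) lie highest.

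The libraries differed in more than these genes. Totals ran from 32768774 to 46473531 counts. Entpd8, on chromosome 2 from 25080304 to 25085716, averaged 39.3 ± 17.0 CPM in wild-type livers and 0.733 ± 0.356 CPM where the label reads knockout (SD, n = 3 per group), in the direction of the labels. Genotype split along the first principal component (53.8% of variance), and WT 2 stood alone on the second (16.6%), the library that was also high in Pfkfb3 and low in G6pc. Mitochondrially encoded genes took 6.52% to 8.34% of counts in wild-type and 10.1% to 11.7% in knockout livers. Leaving these and the hemoglobin genes out before scaling kept the counts at 9 higher and 2 lower.

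Markers of some other cells moved with genotype, and in bulk tissue fewer cells of a type and less RNA per cell cannot be told apart. Hepatocyte markers were high throughout, with a summed level of 59621 to 76130 CPM in wild-type and 64240 to 84265 CPM in knockout livers, 1 of 9 higher and 0 lower. Periportal markers had 0 of 6 called and pericentral ones 1 of 6 higher (summed 3348 to 4333 against 5910 to 6455 CPM). With 9.80% of all genes tested called higher and 10.6% lower, the hepatocyte, periportal and pericentral counts were near the background. Of the 6 pericentral markers, 4 had a log2 fold change above 0. Cyp2e1 is on both the hepatocyte and the pericentral list, and both had the same largest log2 fold change, 0.96, so their counts are not independent. Kupffer cell and macrophage markers fell for 6 of 10 and rose for none (summed 138 to 294 against 75.2 to 98.6 CPM). Erythroid markers rose for 5 of 6 tested (summed 369 to 548 against 1178 to 1547 CPM). The remaining one had a log2 fold change of -1.74 and was not called. Biliary markers rose for 2 of 5, Krt19 and Epcam, with sums of 80.4 to 109 against 121 to 312 CPM and the highest sum in KO 3, the library highest in Hk1 and Hk2.

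Neutrophil markers had 0 of 7 called but summed to 19.4 to 130 CPM in wild-type and 86.3 to 119 CPM in knockout livers. Endothelial (7) and lymphocyte markers (4 tested) had none called, and of 7 stellate markers Col1a1 fell. That is 14.3%, against 10.6% of all genes tested. Of the stellate markers, 3 were lower at an unadjusted p under 0.05 by edgeR, and DESeq2 called 3 lower and limma voom 1. At an unadjusted p under 0.05 by edgeR, 3 lymphocyte markers were higher, 1 endothelial marker and 2 periportal markers were lower, 1 periportal marker was higher, and no neutrophil marker passed; DESeq2 called 1 lymphocyte marker and 1 periportal marker higher and 1 periportal marker lower, and limma voom none of these. The muscle marker Ckm and the pancreas markers Cpa1 and Ins2 were at 0 in all libraries and the adipocyte marker Adipoq was at most 0.0557 CPM. The part of these cell types in the values of Slc2a1, Hk1, Hk2, Pfkp and Pkm was not tested.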

How the data were processed

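Liver RNA (RNeasy kit) was poly(A)-enriched and made into libraries with NEBNext kits, per the labels' protocols. Per the submitters' processing notes, Trim Galore, STAR and Salmon were used with GRCm38; for versions, settings, annotation and strand the sources used here give nothing. The authors deposited expected counts per gene, not scaled, per the values and file headers, in which similar transcripts share reads by a model. Values were rounded to whole numbers. Samples were grouped by their titles.

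Counts were filtered with filterByExpr, scaled by TMM and tested with edgeR 4.0.16 (robust quasi-likelihood, two-sided, R 4.3.3) with genotype as the only term and Benjamini-Hochberg adjustment over all 14069 genes; the common dispersion was 0.0461. The SE of a log2 fold change is its size over the square root of F. CPM uses TMM-scaled totals. Exon lengths and positions came from GENCODE M21 (GRCm38). Pair ratios had 0.5 counts added. The fit was tested on simulated counts. Alternatives were RLE, upper-quartile and total scaling, other filters, no robust weights, DESeq2 1.42.0, limma 3.58.1 voom, a threshold of 0.1, a 1.5-fold minimum, each library left out, a replicate block, mitochondrial and hemoglobin genes left out, and a length trend removed (lowess span 0.5). No 2 libraries agreed within counting noise.

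The members, classes, lists and naming rule were chosen with earlier results of these data known. Named are Entpd8, the 32 members, up to 4 called genes of lowest p in each list, and Pdk4, Ldhb, Txnip and Mlxipl; Glyctk, H6pd, Sik1 and Fgf21 complete counts of called genes, and marker genes that moved are named after their values were seen. Some genes of these pathways are not reported here. Figures were drawn with matplotlib 3.10.9.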

Additional observations from a re-analysis of the deposited data

How the results depend on the processing

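With a fold minimum of 1.5, 1 member was higher and 0 lower, and of all genes 230 were higher and 93 lower. RLE scaling gave 1 lower member, since Pck1 lost its call. A threshold of 0.1 gave 2249 lower genes. Leaving out 1 library at a time gave 4 to 9 higher members, 1 to 3 lower members, 385 to 1390 higher genes and 218 to 1690 lower genes. The other scalings, filters, DESeq2 and limma voom gave 8 to 10 higher and 2 or 3 lower members.

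Same-numbered libraries had correlations of deviations of -0.076, 0.013 and -0.085, and differently numbered ones ran from -0.118 to 0.164. No pairing by number was seen, though 3 libraries per group cannot exclude one. With the replicate block 5 members were higher and 1 lower, and 807 genes were higher and 661 lower; the block leaves fewer residual degrees of freedom.

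Direction changed for 7 members, none of them called. Without a library in turn the log2 fold change ran from -0.132 to 0.127 for Tpi1, -0.100 to 0.096 for Pgam1, -0.149 to 0.517 for Pkm and -0.113 to 0.208 for Fbp1. It ran from -0.345 to 0.098 (without WT 1) for Hk3, from -0.136 (without WT 2) to 0.417 for Pfkm and from -0.644 to 0.0019 (without WT 3) for Pfkfb1. Tpi1 was -0.036 with upper-quartile scaling, -0.070 with library totals, -0.0021 with the replicate block and -0.018 with the length trend removed. Pgam1 was 0.018 with RLE scaling and 0.015 in DESeq2, and Fbp1 -0.025 with the length trend removed. The Pck1/Pck2 difference ran from -0.071 to 0.236. The cause was not tested. Members under 10 CPM rest on the fewest counts.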

Other observations

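The wild-type libraries varied more among themselves than the knockout libraries for most of these genes. The ratio of the highest to the lowest CPM had a median of 1.54 in wild-type and 1.22 in knockout livers over the 32 genes, and it was wider in wild type for 26 of them. Over 13985 genes the medians were 1.37 and 1.27, and wild type was wider for 61.6%. The widest wild-type ratios were those of G6pc (5.06, against 1.79 in knockout livers) and Pfkfb3 (4.08, against 1.16). Fbp1 had a ratio of 1.63 in wild-type and 1.02 in knockout livers.

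Values are given for 3 further genes outside the naming rule, named after their values were seen. Igfbp1, a hepatokine lowered by insulin, was at 447, 891 and 106 CPM in wild-type and 970, 826 and 923 CPM in knockout livers, and was not called (adjusted p = 0.352, edgeR). Hif1a, the low-oxygen factor, was at 65.0, 111 and 45.7 CPM in wild-type and 192, 112 and 249 CPM in knockout livers (adjusted p = 0.0514, edgeR). Its edgeR adjusted p was 0.0219 without WT 2 and 0.0468 without KO 2. Without WT 1, WT 3, KO 1 or KO 3 it was 0.103 to 0.157. Slc2a3, a high-affinity glucose transporter of neurons and white blood cells, was at 2.48, 0.487 and 0.611 CPM in wild-type and 2.39, 3.74 and 3.47 CPM in knockout livers (adjusted p = 0.123, edgeR). Its edgeR adjusted p was 0.0134 without WT 1 and 0.187 to 0.258 when any other library was left out. DESeq2 and limma voom called it with all libraries.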
